A study of Mus musculus with 6 samples.

Results

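The genes described here are those of the neurotrophins and the related factors around them: the ligands Bdnf and Ntf3, the receptors Ntrk2, Ntrk3, Ngfr and Sort1, the neurotrophic factor Gdnf and the activity-regulated protein gene Nrn1 (neuritin). These 8 genes were chosen by symbol, by a rule that uses no measured value, and all 8 were found among the 21878 gene symbols of the deposited expression table. RNA was measured in 6 libraries of HT22 cells, an immortalized line derived from mouse hippocampal neurons, with 3 control libraries and 3 from cells given 120 µM aluminum maltolate for 24 h (Al group). The Al libraries carry only the letter M in the labels, the series text gives a wider dose range, and the methods list a control in culture medium beside a maltol control, of which the sequenced group bears the name of the former. The series text calls the 3 libraries of each group biological replicates without saying whether they came from separate cultures, so the P values measure the spread between these libraries.

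Neurotrophins are secreted proteins that support the survival, growth and synapses of neurons. Each is made as a precursor that furin-like or extracellular proteases cleave. The mature forms bind receptor tyrosine kinases of the TRK family (BDNF the product of Ntrk2, NT3 chiefly that of Ntrk3), while the precursors bind p75NTR, the product of Ngfr, together with sortilin, the product of Sort1. GDNF belongs to a separate family and signals through RET with GFRA co-receptors or through NCAM1, and neuritin is a membrane-anchored protein that promotes the outgrowth of neurites and is itself induced by BDNF in neurons.

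The 6 libraries held 21125631 to 44556768 reads on genes, from 38059492 to 44556768 in the controls and from 21125631 to 26670978 in the Al group, so a gene at the same level gave fewer reads after Al. FPKM values (fragments scaled to gene length and library size) were divided by a size factor for each library, between 0.802 and 1.21, and are then called scaled FPKM. Of the 10 neuron markers examined, 2 (Tubb3 and Eno2) had a mean of at least 1 FPKM, Snap25 and Nefm were at 0 in all 6 libraries, and Map2, Dcx and Rbfox3 had at most 4 reads in any library. The 6 fibroblast or mesenchymal markers all had a mean of at least 1 FPKM, and their summed scaled level was 3067 to 4397 in the controls and 4903 to 6638 in the Al group, whereas the sums of FPKM as deposited overlapped (3601 to 5210 and 4141 to 5326). Of these markers, Thy1 (log2 fold change 1.42, adjusted P = 0.0012, and 0.63 with TPM scaling) and Col1a1 (0.92, adjusted P = 0.0219) were called higher in the limma test described below. The call of Col1a1 was lost with FPKM as deposited (0.43), TPM scaling (0.13) and quantile normalization (-0.46), and without control replicate 3 (0.72, adjusted P = 0.0985). The other 4 (Col1a2, Col3a1, Vim and Pdgfrb) were not called, with log2 fold changes of 0.47, 0.37, 0.37 and -0.66. Most of the listed neuron markers were thus scarce in these cells, while Tubb3 and Eno2 were not, and the identity of the cells was not tested. The summed scaled level of the neuron markers overlapped between the groups (6.30 to 7.87 and 4.88 to 7.68), as did those of 7 oligodendrocyte lineage markers (7.41 to 14.5 and 3.76 to 8.05) and 6 microglia markers (33.5 to 41.4 and 23.8 to 90.6). As FPKM as deposited, the sums of the neuron (7.47 to 9.24 and 3.98 to 7.16) and oligodendrocyte lineage markers (8.70 to 17.2 and 3.06 to 7.50) did not overlap. Within the sums single markers were called, namely Sox10 (log2 fold change 2.29, adjusted P = 0.00115) and Cx3cr1 (2.14, adjusted P = 0.00214) higher and Pdgfra (-1.22, adjusted P = 0.00709) lower. Sox10 had 1, 6 and 1 reads in control replicates 1 to 3 and 41, 13 and 29 in Al replicates 1 to 3. Cx3cr1 had 13, 6 and 12 against 32, 75 and 31. Both averaged below 0.1 FPKM in the controls and passed the filter of the test only through the Al group. The summed scaled level of 5 astrocyte markers, most of it Slc1a3, was 11.95 to 19.7 in the controls and 1.94 to 2.89 in the Al group. Slc1a3 was called lower (log2 fold change -2.96, adjusted P = 2.36e-05). Gfap went the other way on few reads (0, 0 and 4 against 11, 7 and 5), and Aldh1l1 (0.09) and S100b (-0.66) were not called. The scaled sum of 3 endothelium markers was at most 0.139 and 0.396 to 0.462. Among them Pecam1 was called higher (1.26, adjusted P = 0.0273) from a control mean of 0.0580 FPKM, below the filter. The part of these marker levels in the results below was not tested, and in such bulk RNA fewer cells of a type and less RNA per cell cannot be told apart.

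Bdnf transcripts start at several alternative promoters, some of which respond to the cAMP-dependent factor CREB. In the 250 bases upstream of the start sites that RefSeq lists on GRCm38.p6, the letters TGACG or their reverse complement CGTCA, the half-site that CREB binds, were found in 1 of 7 windows of Bdnf, in 1 of 2 of Gdnf and in none of the 2 of Ntf3, the 1 of Ngfr and the 1 of Ntrk2. Promoters of Nrn1, Sort1 and Ntrk3 were not analysed here. Of all 32851 promoter windows, 5836 (17.8%) held these letters. The 2 windows that held them are shown because they belong to the secreted ligands of the set that could be tested, with the motif in capitals and each read 5′ to 3′ on the plus strand. The Bdnf window lies at chr2:109692186-109692435, inside the annotated gene, with the centre of the motif at -33 from the start site, and the Gdnf window lies at chr15:7809798-7810047 with the centre at -48.
Bdnf: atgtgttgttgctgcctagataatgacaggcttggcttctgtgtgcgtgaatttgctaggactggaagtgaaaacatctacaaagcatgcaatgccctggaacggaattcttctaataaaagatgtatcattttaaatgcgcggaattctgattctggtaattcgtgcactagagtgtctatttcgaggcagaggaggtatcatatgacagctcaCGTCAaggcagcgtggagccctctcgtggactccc
Gdnf: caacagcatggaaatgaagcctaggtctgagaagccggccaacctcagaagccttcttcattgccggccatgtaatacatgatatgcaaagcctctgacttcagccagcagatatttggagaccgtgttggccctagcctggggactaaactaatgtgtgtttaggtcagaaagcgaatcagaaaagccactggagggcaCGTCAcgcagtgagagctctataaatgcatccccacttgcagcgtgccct
A match describes these letters only, and binding was not measured.

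The 8 genes fell into 3 that were clearly transcribed and 5 that were close to silent. In the control group the level as deposited was highest for Nrn1 (45.9 ± 6.28 FPKM), followed by Bdnf (6.49 ± 0.748) and Gdnf (5.05 ± 0.274; SD, n = 3 each), and the ranges of these neighbours did not overlap. The next gene, Sort1, stood at 0.0478 ± 0.0283 FPKM, below and apart from the range of Gdnf. Below it came Ntf3, Ngfr, Ntrk3 and Ntrk2, each of which overlapped its neighbour in this order. In the Al group, Nrn1 (13.5 ± 4.80 FPKM) and Bdnf (9.05 ± 2.93) overlapped, while Bdnf and Gdnf (3.91 ± 0.761) did not. Sort1 at 0.109 ± 0.0274 FPKM was again apart from Gdnf, and the order below it was Ngfr, Ntf3, Ntrk3 and Ntrk2, with overlap at each step. The HT22 cells thus held RNA of the ligand genes Bdnf and Gdnf and of Nrn1 at levels above those of the 4 receptor genes in every library.

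**Figure D1:**
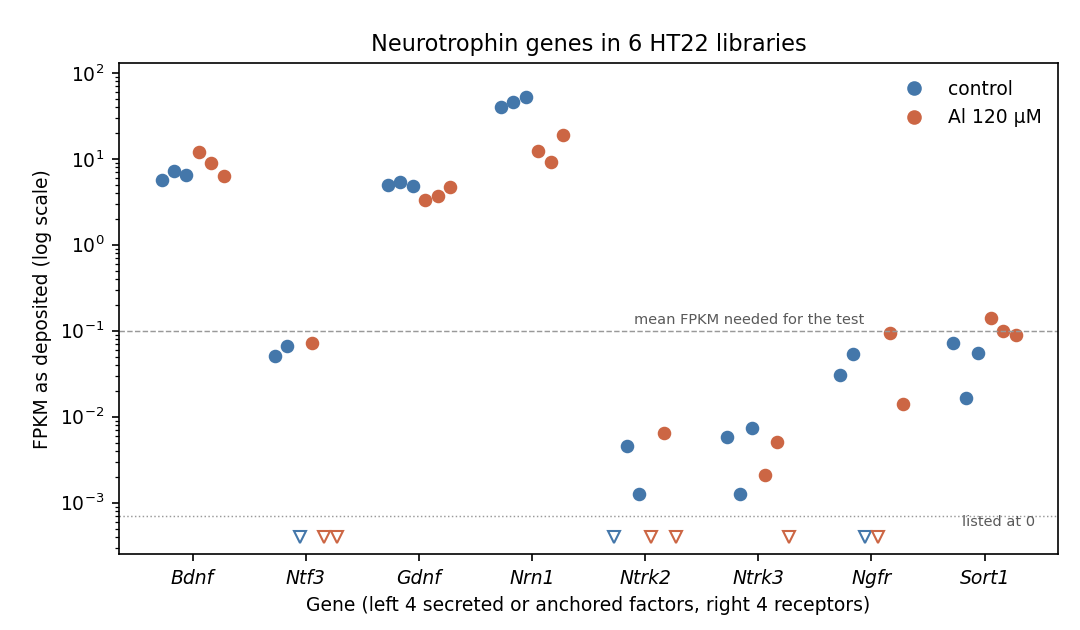
FPKM as deposited (log axis) of the 8 genes, with 1 point for each control library (blue) and each Al library (orange), open triangles for values listed at 0 and a dashed line at the mean of 0.1 FPKM needed for the test. Nrn1, Bdnf and Gdnf lie above 3 FPKM in all 6 libraries, and the 4 receptor genes and Ntf3 lie at or below 0.140 FPKM.

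To ask which of these genes differed after Al, the groups were compared by limma's moderated test on log2(scaled FPKM + 0.1) over all 12889 genes with a mean of at least 0.1 FPKM. Calls needed P below 0.05 before adjustment together with a log2 fold change beyond 0.58 in either direction, the thresholds of the study, and the Benjamini-Hochberg adjusted P over all tested genes is given beside it. Of the 8 genes, 3 passed the filter on low values, and of these Bdnf was called higher, Nrn1 was called lower and Gdnf was not called. Calls were common in these libraries, at 50.6% of all tested genes, with 26.2% called higher and 24.4% called lower. The 2 calls among 3 tested genes are read against that background. Means given in FPKM below are as deposited unless called scaled, while log2 fold changes are those of scaled FPKM unless another scaling is named. A mean and a fold change in the same sentence therefore need not match.

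Bdnf (chromosome 2, 109674700 to 109727007 on the plus strand, GRCm38), the ligand of TrkB, had 5.73, 7.22 and 6.52 FPKM as deposited in control replicates 1 to 3 and 12.1, 8.84 and 6.23 in Al replicates 1 to 3. On that scale the groups overlapped, since the lowest Al library lay among the controls. Scaled FPKM was 4.84, 5.98 and 5.55 in the controls and 15.1, 10.8 and 6.69 in the Al libraries. All 3 Al libraries then lay above all 3 controls, where 68.1% of all tested genes had groups that did not overlap in one or the other direction. The spread in the Al group (10.9 ± 4.19) was wider than in the control group (5.46 ± 0.577; SD, n = 3 each). The log2 fold change was 0.91 (SE 0.26, 95% interval 0.32 to 1.50, adjusted P = 0.0135), a 1.88-fold rise. With FPKM as deposited it was 0.43 (adjusted P = 0.116) and with libraries scaled to the same sum of FPKM (TPM) it was 0.13 (adjusted P = 0.592), and the call was lost in both. The values rested on 884 to 2163 reads per library. In GENCODE, 896 of 6217 exon bases of Bdnf also belong to Gm45346, an antisense gene without a value in the table, and whether reads were counted by strand is not given in the sources used here.

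Gdnf (chromosome 15, 7810846 to 7837575), a survival factor for dopaminergic and motor neurons, had 4.17, 4.44 and 4.14 scaled FPKM in the controls and 4.08, 4.56 and 5.10 in the Al libraries. The groups overlapped (exact permutation test, two-sided P = 0.4). Its log2 fold change was 0.10 with a 95% interval from -0.20 to 0.41 (adjusted P = 0.531), which leaves out changes beyond the 0.58 of the threshold at this scaling. The direction depended on the scaling. With FPKM as deposited, where the values were 4.94, 5.37 and 4.86 in the controls and 3.27, 3.71 and 4.76 in the Al group, the log2 fold change was -0.38 (adjusted P = 0.0871), and with TPM scaling it was -0.68 (adjusted P = 0.0189) and the gene was called lower.

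Ntf3 (chromosome 6, 126101412 to 126166910), which encodes the neurotrophin NT3, was near the limit of detection. It had 2, 3 and 0 reads in control replicates 1 to 3 and 2, 0 and 0 in Al replicates 1 to 3. The 3 reads that a count of 0 still allows correspond to 0.0649 to 0.137 FPKM in these libraries, and no value of the gene exceeded the limit of its own library. No difference was detectable at this depth, and the ratio of the Al to the control rate was 1.02 with an exact 95% interval from 0.0969 to 6.22, which covers counting error only.

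Nrn1 (chromosome 13, 36725361 to 36735131 on the minus strand), the neuritin gene, had 33.6, 37.7 and 44.6 scaled FPKM in the controls and 15.5, 11.4 and 20.1 in the Al libraries. Every Al library lay below every control library. The log2 fold change was -1.33 (SE 0.20, 95% interval -1.78 to -0.88, adjusted P = 0.000492), which is 2.51-fold lower, and it rested on 2911 to 4482 reads per control library and 390 to 759 per Al library. The call was made under each of the 18 alternative settings, with log2 fold changes between -2.12 and -1.11. Fars2, a mitochondrial tRNA synthetase gene on the opposite strand, covers 501 of the 2249 exon bases of Nrn1. Fars2 was lower as well, with 8.16 ± 0.683 FPKM as deposited in the controls and 2.87 ± 0.121 after Al (SD, n = 3 each). Its log2 fold change was -0.997 on scaled FPKM (adjusted P = 0.000178) and -1.47 on FPKM as deposited. The library kit keeps the strand, but the counting setting is not given, so reads of the shared bases cannot be assigned, and their part in the difference of Nrn1 was not tested.

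**Figure D2:**
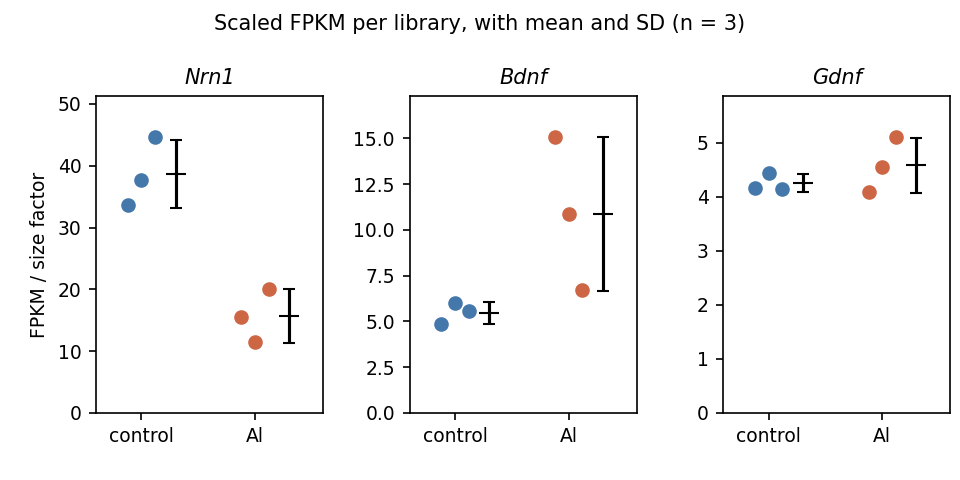
Scaled FPKM (FPKM divided by the size factor, linear axes from 0) of Nrn1, Bdnf and Gdnf in the control (blue) and Al (orange) libraries, with the mean and SD of each group (n = 3). The groups do not overlap for Nrn1 and Bdnf and overlap for Gdnf, and for Bdnf the Al libraries spread from 6.69 to 15.1.

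The receptor genes were scarce in both groups. Ntrk2 (chromosome 13, 58806569 to 59133970), the gene of the BDNF receptor TrkB, had 0, 7 and 2 reads in control replicates 1 to 3 and 0, 5 and 0 in Al replicates 1 to 3, over a length of 35372 bases. No library exceeded 0.00647 FPKM. In the 3 libraries at 0 (control replicate 1 and Al replicates 1 and 3), a count of 0 allows up to 0.00223, 0.00318 and 0.00401 FPKM. Ntrk3 (chromosome 7, 78175959 to 78738012), the gene of the NT3 receptor TrkC, had 4, 1 and 6 reads in the controls and 1, 2 and 0 in the Al group. The groups overlapped for both genes, and the ratios of the Al to the control rate were 1.41 (exact 95% interval 0.372 to 4.70) for Ntrk2 and 0.694 (0.124 to 2.63) for Ntrk3. Neither difference was detectable at this depth.

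Ngfr (chromosome 11, 95568818 to 95587735), the gene of p75NTR, which binds all neurotrophins and their precursors, had 4, 8 and 0 reads in the controls and 0, 7 and 1 in the Al group. Libraries at 0 and libraries with several reads occurred in both groups. The ratio of rates was 1.70 (exact 95% interval 0.602 to 4.51). Without a filter on low values, limma called none of Ngfr, Ntf3, Ntrk2 and Ntrk3 (adjusted P = 0.726, 0.856, 0.910 and 0.892, over all genes above 0).

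Sort1 (chromosome 3, 108284082 to 108361511), the gene of the sorting receptor sortilin, had the highest mean of the 4 receptor genes in both groups and stayed below the filter. In control replicate 2, Ngfr (0.0540 FPKM) stood above Sort1. It had 19, 5 and 17 reads in control replicates 1 to 3 and 26, 15 and 13 in Al replicates 1 to 3. As FPKM these were 0.0719, 0.0166 and 0.0550 against 0.140, 0.0989 and 0.0887, so every Al library lay above every control library. The ratio of rates on the scaled depth was 3.35 (exact 95% interval 2.19 to 5.16), which covers counting error and not the spread between libraries. Without the filter, the log2 fold change on the log2(scaled FPKM + 0.1) scale, which understates the change of so low a gene, was 0.72 (SE 0.21, adjusted P = 0.0326) and Sort1 was called higher, as were 20.4% of the 17688 genes in that fit. With Bdnf and Nrn1, 3 of the 8 genes were called there, against 38.5% of all genes. The exact permutation P of 0.1 is the smallest that 3 against 3 libraries allow.

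A ratio of genes within a library does not depend on the scaling between libraries, so ratios of the abundant ligand genes were compared, together with Nrn1. The ratio of Nrn1 to Bdnf was 6.95, 6.31 and 8.03 in the controls and 1.03, 1.05 and 3.001 in the Al libraries. In the control libraries the neuritin gene was several times as abundant as Bdnf per length, and in Al replicates 1 and 2 they were nearly level. The log2 change of the ratio was -2.25 (SE 0.52), a 4.77-fold drop. The ratio of Nrn1 to Gdnf was 8.06, 8.50 and 10.8 against 3.79, 2.502 and 3.93, a 2.71-fold drop. The ratio of Bdnf to Gdnf, at 1.16, 1.35 and 1.34 against 3.69, 2.38 and 1.31, overlapped between the groups through Al replicate 3. For the 2 ratios without overlap, the exact permutation P was 0.1, the smallest possible, and 0.15 when adjusted over the 3 ratios, so none passed a threshold of 0.05 in this design.

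**Figure D3:**
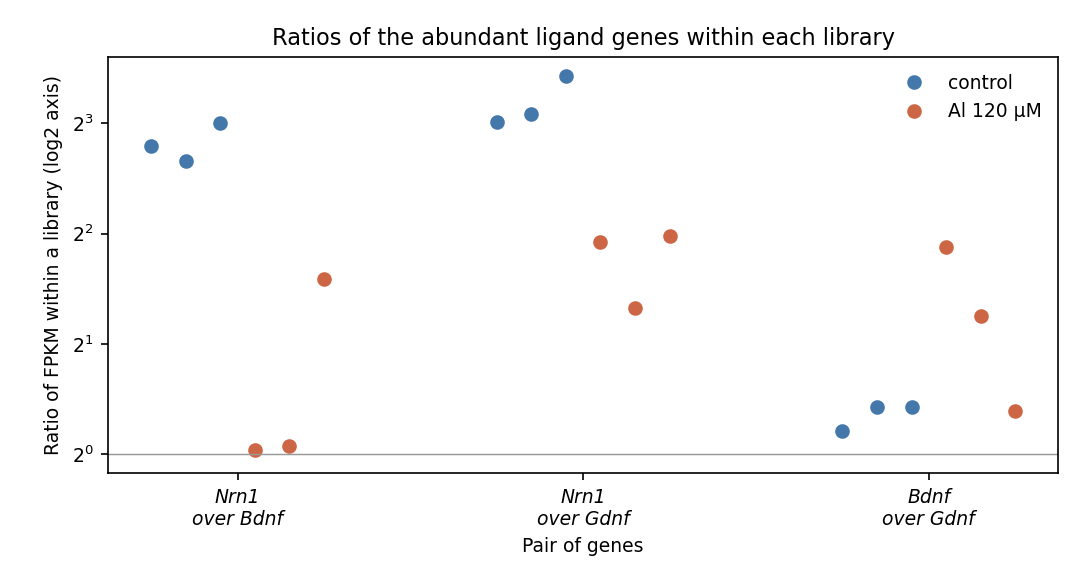
Ratio of FPKM of 2 genes within a library (log2 axis), with 1 point for each control (blue) and Al (orange) library. The 2 ratios with Nrn1 on top are lower in each Al library than in each control library, while Bdnf over Gdnf overlaps.

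The fold changes moved with the scaling as the whole distribution did. The median log2 fold change over all tested genes was 0.03 with size factors, -0.43 with FPKM as deposited and -0.74 with TPM scaling, and the genes called went from 3375 higher and 3143 lower to 1805 and 5417 with FPKM as deposited and to 1201 and 6848 with TPM scaling. Relative to that median, the log2 fold change of Bdnf was 0.88, 0.86 and 0.87 under these 3 scalings, that of Nrn1 was -1.36, -1.38 and -1.38, and that of Gdnf was 0.07, 0.06 and 0.06. Over the 31 tested genes compared across scalings, TPM scaling moved the log2 fold change by -0.89 to -0.32 (median -0.79). With quantile normalization, the log2 fold changes were 1.05 for Bdnf, -1.52 for Nrn1 and 0.39 for Gdnf. The first 3 scalings each divide a library by a single number, so the distance of a gene from the median had to stay nearly the same. That distance is therefore no separate support for any gene. The sign of Gdnf and the call of Bdnf depended on where the zero was set.

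**Figure D4:**
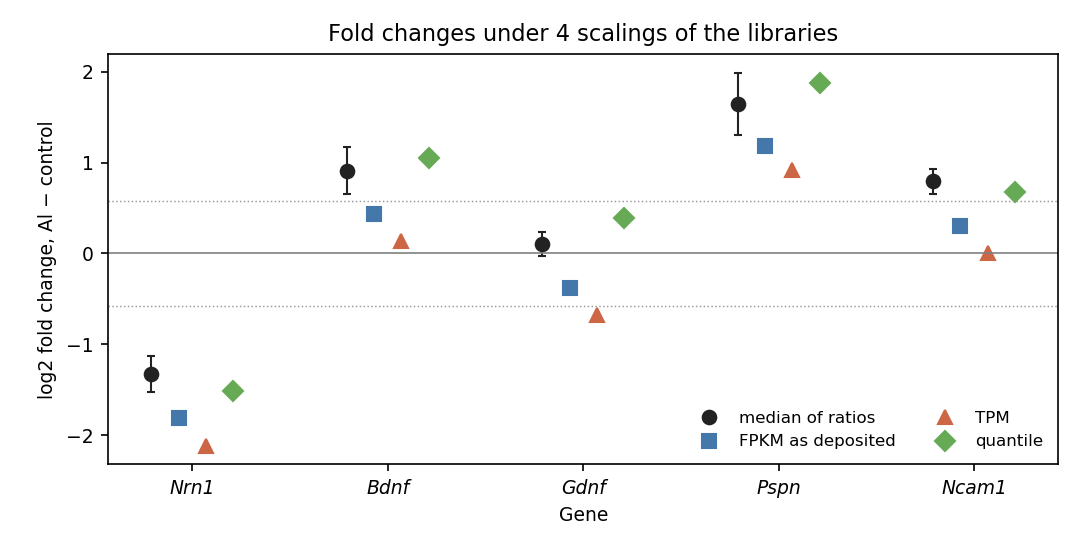
Log2 fold change (Al minus control) of 3 of the 8 genes and of Pspn and Ncam1 under 4 scalings of the libraries, with the SE on the median-of-ratios value and dotted lines at the call threshold of 0.58 in either direction. Nrn1 lies below the lower line and Pspn above the upper line under all 4 scalings, while Bdnf and Ncam1 fall inside the lines with FPKM as deposited and TPM, and Gdnf changes sign.

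Other ligands and receptors of these families were examined as a list of 15 genes, of which 4 passed the filter, with 2 called higher and 0 lower, 2 of 4 beside 50.6% of all tested genes, and a median log2 fold change of 1.02 against 0.03. Pspn, which encodes the GDNF relative persephin, rose from 1.69 ± 0.438 to 4.16 ± 2.08 FPKM (SD, n = 3 each; log2 fold change 1.65, adjusted P = 0.0029), on 22 to 68 reads per library, and the call held under each scaling. Ncam1, a cell adhesion molecule that can serve as a GDNF receptor, went from 16.5 ± 0.912 to 20.5 ± 2.55 FPKM (log2 fold change 0.79, adjusted P = 0.00097), a call that was lost with FPKM as deposited (0.31) and with TPM scaling (0.01). Nrn1l, the neuritin paralogue, had 5 to 34 reads per library and was not called (log2 fold change 1.25, adjusted P = 0.0962), but its value rested on single Al libraries, with 1.95 (adjusted P = 0.00478, called higher) without Al replicate 1, which had 5 reads, and 0.65 (adjusted P = 0.275) without Al replicate 3, which had 34. Ntf5, the gene of NT4, was not called (0.38, adjusted P = 0.420).

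Apart from Ncam1, the receptor genes of the GDNF family had few reads. Ret, the kinase receptor of the GDNF family, had 0, 16 and 5 reads in the controls against 28, 0 and 5 after Al, and its co-receptor Gfra1 had 6, 5 and 2 against 0, 0 and 1. The groups overlapped for Ret, with Al replicate 1 the highest library. Gfra4 had at most 1 read in any library, and Gfra2, Gfra3, the ligand gene Nrtn and the sortilin relative Sorcs1 were at 0 in all 6. Artn, the gene of the ligand artemin, had 13, 23 and 16 reads against 2, 24 and 10, and the sortilin relatives Sorcs2, Sorcs3 and Sorl1 had at most 18 reads in any library.

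Of 15 genes of enzymes that cleave proneurotrophins and of an inhibitor, 8 were tested, with 2 called higher, 0 lower and 6 not called (2 of 8 called beside 50.6% of all tested genes, median log2 fold change 0.44). Pcsk4, a proprotein convertase gene, rose from 1.19 ± 0.219 to 1.79 ± 0.489 FPKM as deposited (SD, n = 3 each). Its log2 fold change on scaled FPKM was 0.98 (adjusted P = 0.00753), a call lost with FPKM as deposited (0.53) and with TPM scaling (0.26). The other was Mmp3, a matrix metalloproteinase gene below 1 FPKM on average (1.97, adjusted P = 0.00668), whose log2 fold change ran from 3.38 with voom on recovered reads to 0.53 with a pseudocount of 1, where the call was lost. Furin, the gene of the main intracellular convertase, was not called, with 35.1, 34.0 and 31.3 scaled FPKM in the controls and 28.3, 32.0 and 41.2 in the Al libraries.

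The TRK adaptors and the signalling core (40 genes) had 37 tested members, of which 8 were called higher, 14 lower and 15 not called, with a median log2 fold change of -0.37. The largest decreases were those of Rps6ka3, the ERK-activated kinase RSK2 (from 13.9 ± 0.644 to 3.18 ± 0.477 FPKM, log2 fold change -1.62, adjusted P = 1.39e-05), of Plcg1, a phospholipase recruited by activated TRK receptors (-1.22, adjusted P = 3.7e-05), and of Pik3r1, a regulatory subunit of PI3K (-1.19, adjusted P = 0.000339). The largest increases were those of the docking protein gene Frs3 (from 0.991 ± 0.330 to 3.46 ± 1.05 FPKM, 2.16, adjusted P = 0.000527, with 1.47 under TPM scaling and 1.45 with a pseudocount of 1), the adaptor gene Crkl (1.17, adjusted P = 2.86e-05) and Pik3cb, a catalytic subunit of PI3K (0.93, adjusted P = 0.000775). The calls of Crkl with TPM scaling, and of Pik3cb with FPKM as deposited and TPM scaling, were lost. The share of this list that was called, 59.5%, stood beside 50.6% of all tested genes.

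Of 24 genes of p75NTR partners and death signalling, 21 were tested, with 6 called higher, 4 lower and 11 not called. This is 47.6% called, beside 50.6% of all tested genes, with a median log2 fold change of 0.25. Psen2, a catalytic subunit of the γ-secretase that cleaves p75NTR, fell from 1.88 ± 0.261 to 0.278 ± 0.0813 FPKM (log2 fold change -1.996, adjusted P = 0.000154). The call held under all 17 other settings that tested the gene, but its size ran from -2.89 with TPM scaling to -0.96 with a pseudocount of 1. Mapk9, the gene of the kinase JNK2, fell by 1.20 on the log2 scale (adjusted P = 5.19e-05), and Zfp369, a zinc finger gene related to the p75NTR interactor NRIF, fell by 1.12 (adjusted P = 0.000558). Traf6, an adaptor of p75NTR, was called higher (log2 fold change 1.08, adjusted P = 5.76e-05), except with TPM scaling. Rhoa and Psenen both had a log2 fold change of 0.71 with size factors, but the call was lost under each of the other 3 scalings and the sign turned with TPM scaling (-0.08 each). With quantile normalization Rhoa was at 0.08.

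Of 21 regulators of Bdnf transcription, 20 were tested, with 4 called higher, 5 lower and 11 not called. This is 45.0% called, beside 50.6% of all tested genes, with a median log2 fold change of 0.02. Creb1, the gene of CREB itself, was not called (log2 fold change 0.02, adjusted P = 0.887). Bhlhe40, a transcriptional repressor gene, rose from 26.2 ± 3.40 to 43.2 ± 1.32 FPKM as deposited (SD, n = 3 each). Its log2 fold change was 1.21 on scaled FPKM (adjusted P = 5.7e-05) and 0.73 on FPKM as deposited, a call lost with TPM scaling. Rest, whose product silences neuronal genes, was called higher with size factors (0.79, adjusted P = 0.000182) and under none of the other 3 scalings (0.30 on FPKM as deposited, 0.00 after TPM scaling and 0.49 after quantile normalization). Nfatc4, a calcium-dependent activator gene, fell from 5.43 ± 0.0611 to 1.03 ± 0.482 FPKM (-1.92, adjusted P = 0.000215). The CREB coactivator gene Crtc3 (-1.25, adjusted P = 0.000577) and Rcor1, a corepressor that works with REST (-0.80, adjusted P = 0.00108), were lower too.

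Among 17 other secreted neurotrophic factors, 14 were tested, with 6 called higher, 2 lower and 6 not called. This is 57.1% called, beside 50.6% of all tested genes, with a median log2 fold change of 0.52. Lif, the leukemia inhibitory factor gene, rose from 1.81 ± 0.5996 to 6.60 ± 1.09 FPKM (log2 fold change 2.31, adjusted P = 5.47e-05), and Manf, an endoplasmic reticulum stress-responsive factor, rose from 46.9 ± 0.547 to 99.02 ± 10.1 (SD, n = 3 each; 1.56, adjusted P = 3.56e-05). Cntf, the ciliary neurotrophic factor gene, was called higher (1.27, adjusted P = 0.00382) except with TPM scaling. Ctf1, the gene of cardiotrophin 1, fell from 4.47 ± 0.691 to 0.745 ± 0.485 FPKM (-2.20, adjusted P = 0.00204, with -3.05 under TPM scaling and -1.39 with a pseudocount of 1), and Gmfb fell by 0.73 on the log2 scale (adjusted P = 0.000374). Lif, Cntf and Ctf1 encode cytokines of a single family, and these 3, named for the size of their changes, differed in direction.

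**Figure D5:**
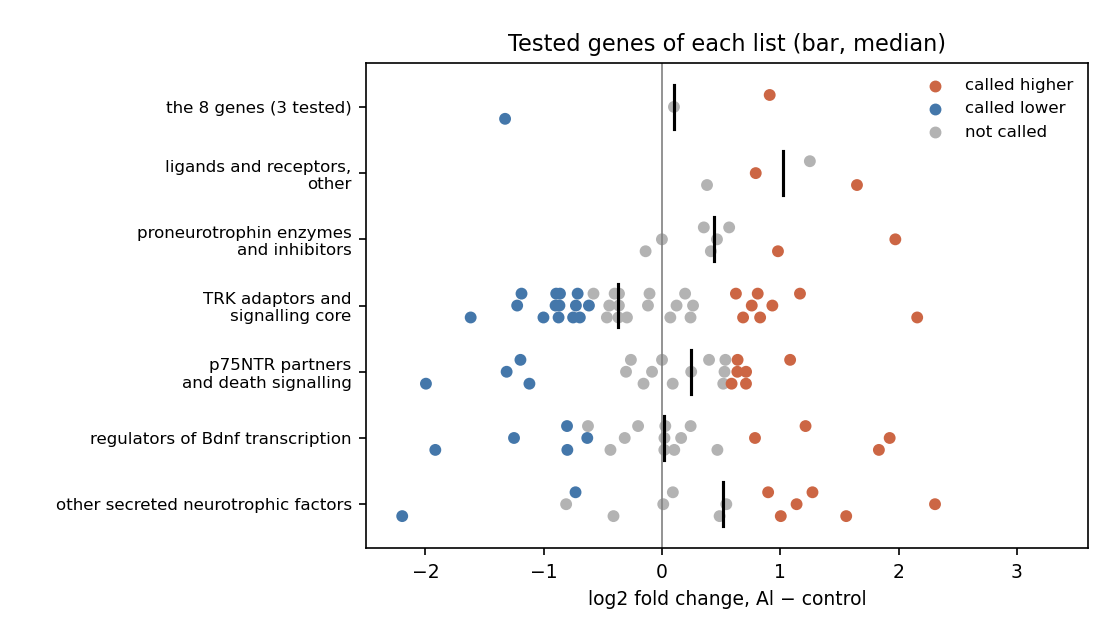
Log2 fold change (Al minus control) of the tested genes of each list, with 1 point per gene, orange for called higher, blue for called lower and grey for not called, and a black bar at the median of each list. Called genes of both directions occur among the TRK signalling core, the p75NTR partners, the Bdnf regulators and the other secreted factors.

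To describe which genes varied across the libraries as these genes did, 10348 genes with a mean of at least 1 FPKM were compared over the 6 libraries by the Euclidean distance of their centred log2 scaled values. Nearest to Bdnf were Sec61b (0.197), Gng10 (0.207) and Gtf2h5 (0.220), and nearest to Nrn1 were Prr32 (0.236), Wdr11 (0.241) and Mtmr6 (0.244). The genes nearest to Gdnf were Zfp646 (0.0939), Phf3 (0.102) and Phlpp1 (0.102). All genes share the same 6 libraries in 2 groups, and the distances are given as a description.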

How the data were processed

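RNA-seq input libraries of HT22 cells (3 control, 3 Al) were used, and the immunoprecipitated libraries were not analysed here. The authors deposited FPKM, with 1 value per gene symbol and library and no scaling between libraries. The sources differ on how these were made: the paper gives Trimmomatic, SortMeRNA, HISAT2 and GRCm38/mm10, the submitters' processing notes give fastp, HISAT2, HTSeq and GRCm39, and the series text names another genome. No genome sequence was read by the files' coordinates; positions are those of GENCODE on GRCm38, and promoter windows those of RefSeq on GRCm38.p6. Of the 21878 symbols, 20461 are current RefSeq symbols, 880 are synonyms and 537 were unmatched.

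FPKM values are whole multiples of the value of a single read, so the reads behind them were recovered for 17685 of the 17688 genes above 0, each with a gene length whole within 0.03 bases. Where a length came out as a fraction, reads and length were multiplied by a whole number that made it whole, so this is partly set by the method. A factor shared by all reads of a gene and its length cannot be seen. Counts of genes with few reads are therefore the least certain. On simulated tables of 17210 genes, 96.05% of genes were recovered exactly. Size factors were medians of ratios over genes that were above 0 in each library and averaged at least 1 FPKM. Tests used limma 3.58.1 in R 4.3.3 (lmFit, eBayes with trend) on log2(FPKM / size factor + 0.1) for genes with a mean of at least 0.1 FPKM. A simulated comparison of 12805 genes with 200 changed by a log2 fold change of 2 had 100% of these called and 0.563% of the others. Its counts had the same fixed dispersion for all genes, and the changed genes were well-read ones, as many higher as lower. It checked the code and gives no error rates for the real libraries, where 50.6% of tested genes were called. Tables were made with Python 3.11.15, numpy 2.4.6, pandas 2.3.3 and scipy 1.17.1. Rate ratios have exact 95% intervals, and intervals and limits for a count of 0 (3 reads) cover counting error only.

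The genes named are all 8 of the set, the related ligands and receptors above 0, and, of each other list, the 3 largest increases and decreases with an adjusted P under 0.05, an absolute log2 fold change over 0.58 and a mean of at least 1 FPKM, with the 3 genes nearest to each abundant gene of the set. Furin, Mmp3, Creb1, Fars2 and the ligand and receptor genes at 0 were named outside this rule, after their values were seen. The rule for the 8 genes uses no measured value, but the genes and lists were chosen with earlier results of these data known. No list is therefore independent support. Some listed genes are not reported here and were left out of the list counts. Alternatives covered the scaling, pseudocount, filter, trend, thresholds, a replicate block, voom on recovered reads, thinned reads and each library left out.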

Additional observations from a re-analysis of the deposited data

How the results depend on the processing

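Nrn1 kept its direction and its call under all 18 alternatives (log2 fold change -2.12 to -1.11), and Bdnf under 16 of 18, the exceptions being FPKM as deposited (0.43) and TPM scaling (0.13), with adjusted P between 0.000251 and 0.592 over all of them. Gdnf reversed under the same scalings (-0.38 and -0.68, adjusted P between 0.0189 and 0.829 over all alternatives). Under these scalings the median of all tested genes moved to -0.43 and -0.74, and of the 8 genes 0 were called higher under either and 2 lower with TPM scaling. Without the filter on low values, 2 of the 8 were called higher, beside 20.4% of all genes. With FPKM as deposited and TPM scaling, in that order, the calls were 2 and 1 higher and 24 and 26 lower for the TRK core, 1 and 0 higher and 7 and 10 lower for the p75NTR partners, 9 and 14 lower for the Bdnf regulators, 3 and 2 higher and 4 and 5 lower for the other secreted factors, and 1805 and 1201 higher and 5417 and 6848 lower for all genes. Both scalings gave 1 higher call among the other ligands and receptors and 1 among the enzymes, as did a pseudocount of 1 and a mean of at least 1 FPKM for the enzymes, and with a library left out each of these lists had 2 to 3. TPM scaling also gave 2 enzyme genes lower and 2 Bdnf regulators higher. Quantile normalization gave 4 higher calls in the TRK core, 1 among the p75NTR partners and 4 lower among the other factors, causes that were not tested. For the Bdnf regulators, a mean of at least 1 FPKM left 2 higher, a pseudocount of 1 left 3 lower, and with a library left out 3 to 5 were lower, the fewest without Al replicate 1. With each library left out in turn, Bdnf ranged from 0.64 to 1.23, Nrn1 from -1.51 to -1.11 and Gdnf from 0.03 to 0.18. Deviations of same-numbered libraries had correlations of -0.08, -0.06 and -0.11, and other pairs ran from -0.13 to 0.15. So few libraries cannot exclude that same-numbered ones were handled together, and the labels state no pairing. With a replicate block, Bdnf was 0.91 (adjusted P = 0.00997), Nrn1 -1.33 and Gdnf 0.10, and the calls of the 3 were the same. In that fit Nrn1l was called higher (adjusted P = 0.0448) and Col1a1 was lost (adjusted P = 0.0792), and all genes had 3352 higher and 3123 lower. Depth limits Ntf3, Ntrk2, Ntrk3 and Ngfr, for which only large changes could have been seen.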
